A study of Drosophila melanogaster with 2 samples.

Results

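The genes described here are 10 nuclear receptor genes of *Drosophila melanogaster*, the ecdysone receptor and receptors mostly known from the response to this steroid, *EcR*, *usp*, *Eip75B*, *Eip78C*, *Hr3*, *Hr4*, *Hr39*, *Hr78*, *Hr96* and *ftz-f1*, out of 13968 protein-coding genes in the annotation. Each was taken with 10000 bp to either side. They were chosen from measured values of these same data, in which most of them had a reproducible promoter peak of the transcription factor Kah. That they have such peaks is therefore a description and carries no test. Which start site each peak lay at, what lay inside the genes, and how each replicate saw it are given below.

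Binding of Kah, a Snail-family zinc finger protein, was mapped by ChIP-seq, in which DNA bound to a protein is recovered with an antibody and sequenced. The material was whole embryos of mixed sex, 0 to 16 h old, of a line that stably carries an insertion expressing Kah fused at its C terminus to green fluorescent protein. All samples formed 1 group of 2 biological replicates, with no untagged or untreated group, and chromatin had been sonicated to 200 to 800 bp. In the labels the antibody is kah and the assay a transcription factor ChIP-seq, but the free text of both libraries calls them an input control, and the values are used here as ChIP peaks. How the transgene is driven is not given in the sources used here. Whole embryos of this age span hold many cell types, so a peak cannot be placed in any of them.

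Ecdysone is the steroid hormone that times moulting and metamorphosis in insects, and a pulse of it also occurs during embryogenesis. Its active form binds a heterodimer of EcR, the ecdysone receptor, and Usp, the fly counterpart of the vertebrate RXR proteins. The dimer switches on a first set of genes, among which are further nuclear receptors, and these relay the signal in time. Several of these genes have nested promoters that give protein isoforms with different N termini, so the start site that a peak lies at bears on which isoform it is near.

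The authors deposited 30000 candidates for each replicate and another 30000 called on both replicates together (the pooled list), and 4105 peaks passed the authors' irreproducible discovery rate procedure (IDR). These 4105 were exactly the 4105 pooled candidates of highest signal. The lowest IDR signal was 149.7 and the highest signal of any other pooled candidate 149.6. Signal is the enrichment value of the authors' peak caller on its own scale, whose unit is not given, and read depth is unknown. Candidates had a median signal of 30.4 (replicate 1), 33.9 (replicate 2) and 58.1 (pooled list), while that of IDR peaks was 233. For the 3902 IDR summits that both replicate lists held, the log2 ratio of replicate 2 over replicate 1 was taken. Its median was 0.07 and its SD 0.57. This SD is the spread of the ratio across these summits, of all strengths, and replicate values are read against it here. It is not an error measured at any single summit, and it leaves out summits that a replicate list lacked.

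The word CAGGTG, a form of the E-box that Snail-family proteins are known to bind, lay within 50 bp of 6 IDR summits in these genes and their flanks. The 6 sites are shown in the Release 6 (dm6) sequence, turned so that the word, in capitals, reads the same way, because they allow the flanking bases to be compared.
*Hr78* promoter, chr3L:21497554-21497583, minus strand: actgtagctctaCAGGTGttttggtatatt
*Hr4* intron 2, chrX:1947767-1947796, minus strand: agtacacaattcCAGGTGttattccgacgc
*Hr4* 3′ end, chrX:2006002-2006031, minus strand: agtctctaaataCAGGTGgcgccactgagg
*Actn* near *usp*, chrX:2035527-2035556, plus strand: aacctgccacaaCAGGTGgttcccgctcta
*Hr96* intron 3, chr3R:25028192-25028221, minus strand: gaaaagaacgaaCAGGTGgccattattatc
*ftz-f1* intron 3, chr3L:18756966-18756995, plus strand: ggcaatgggcagCAGGTGgccaccataaaa
The first base of the word on the plus strand lay 31 bp from the summit at *Hr78*, 30 bp at the *Hr4* intron, 8 bp at the *Hr4* 3′ end, 20 bp at *Actn*, 20 bp at *Hr96* and 0 bp at *ftz-f1*.

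The 3 strongest promoter summits after *Hr78* had no CAGGTG in their windows, and their sequences are shown on the plus strand as the contrast to the sites above. Capitals mark CAGGTA, the core of the site of the early embryonic activator Zelda. The *Eip75B*-RC window was shortened to leave out transcribed leader sequence.
*Eip75B*-RC promoter, chr3L:17999822-17999879: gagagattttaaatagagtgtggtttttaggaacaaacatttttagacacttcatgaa
*Hr96* promoter, chr3R:25025056-25025156: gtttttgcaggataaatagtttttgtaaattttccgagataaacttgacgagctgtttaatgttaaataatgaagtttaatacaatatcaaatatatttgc
*Eip75B*-RA promoter, chr3L:17971491-17971591: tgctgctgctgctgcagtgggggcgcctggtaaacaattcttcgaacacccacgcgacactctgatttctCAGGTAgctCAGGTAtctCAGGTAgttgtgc
The *Eip75B*-RA window held 3 copies of CAGGTA in a row, and no other of the 48 IDR summits described here had that word within 50 bp.

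Across the 10 genes and their flanks, 618 kb in all, there were 48 IDR summits and 286 pooled candidates. This was 7.76 IDR summits per 100 kb, against 3.07 over all chromosome arms and 3.39 over all protein-coding genes taken with the same flanks. Pooled candidates stood at 46.2 per 100 kb, against 22.4 and 24.3. Both densities include the promoter summits on which the genes were chosen, so no enrichment is read from them. All 10 genes had an IDR summit in the gene or its flanks, as had 57.9% of all protein-coding genes. IDR summits lay at an own promoter, within 500 bp of a start site (TSS) of a protein-coding transcript, in 9 of the 10 genes, the exception being *Eip78C*. Among all protein-coding genes this share was 17.0%, and among those with any pooled candidate at a promoter 31.8%, from which nothing is read since the genes were chosen on it.

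The 48 summits fell into 10 at the genes' own promoters, 5 at promoters of neighbouring genes, 29 inside the genes away from any promoter, and 4 outside the genes and away from promoters. Of the 29 inside the genes, 28 were intronic and 1 lay in a 3′ UTR. In total 33 of 48 (68.8%) were over 500 bp from every protein-coding TSS, against 49.5% of all IDR summits. Gene length, which ran from 3476 bp at *Hr78* to 113744 bp at *Eip75B*, was not taken into account, so no excess is read from this. The 29 internal summits were in 6 genes, with 7 in *Eip75B*, 6 in *Hr4*, 6 in *ftz-f1*, 5 in *EcR*, 4 in *Hr3* and 1 in *Hr96*. They stood 1095 to 23215 bp from the nearest TSS, with a median of 6199 bp. The median pooled signal was 254 at own promoters (n = 10) and 212 inside the genes (n = 29), with ranges of 152 to 1099 and 152 to 893 that overlapped almost entirely.

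**Figure D1:**
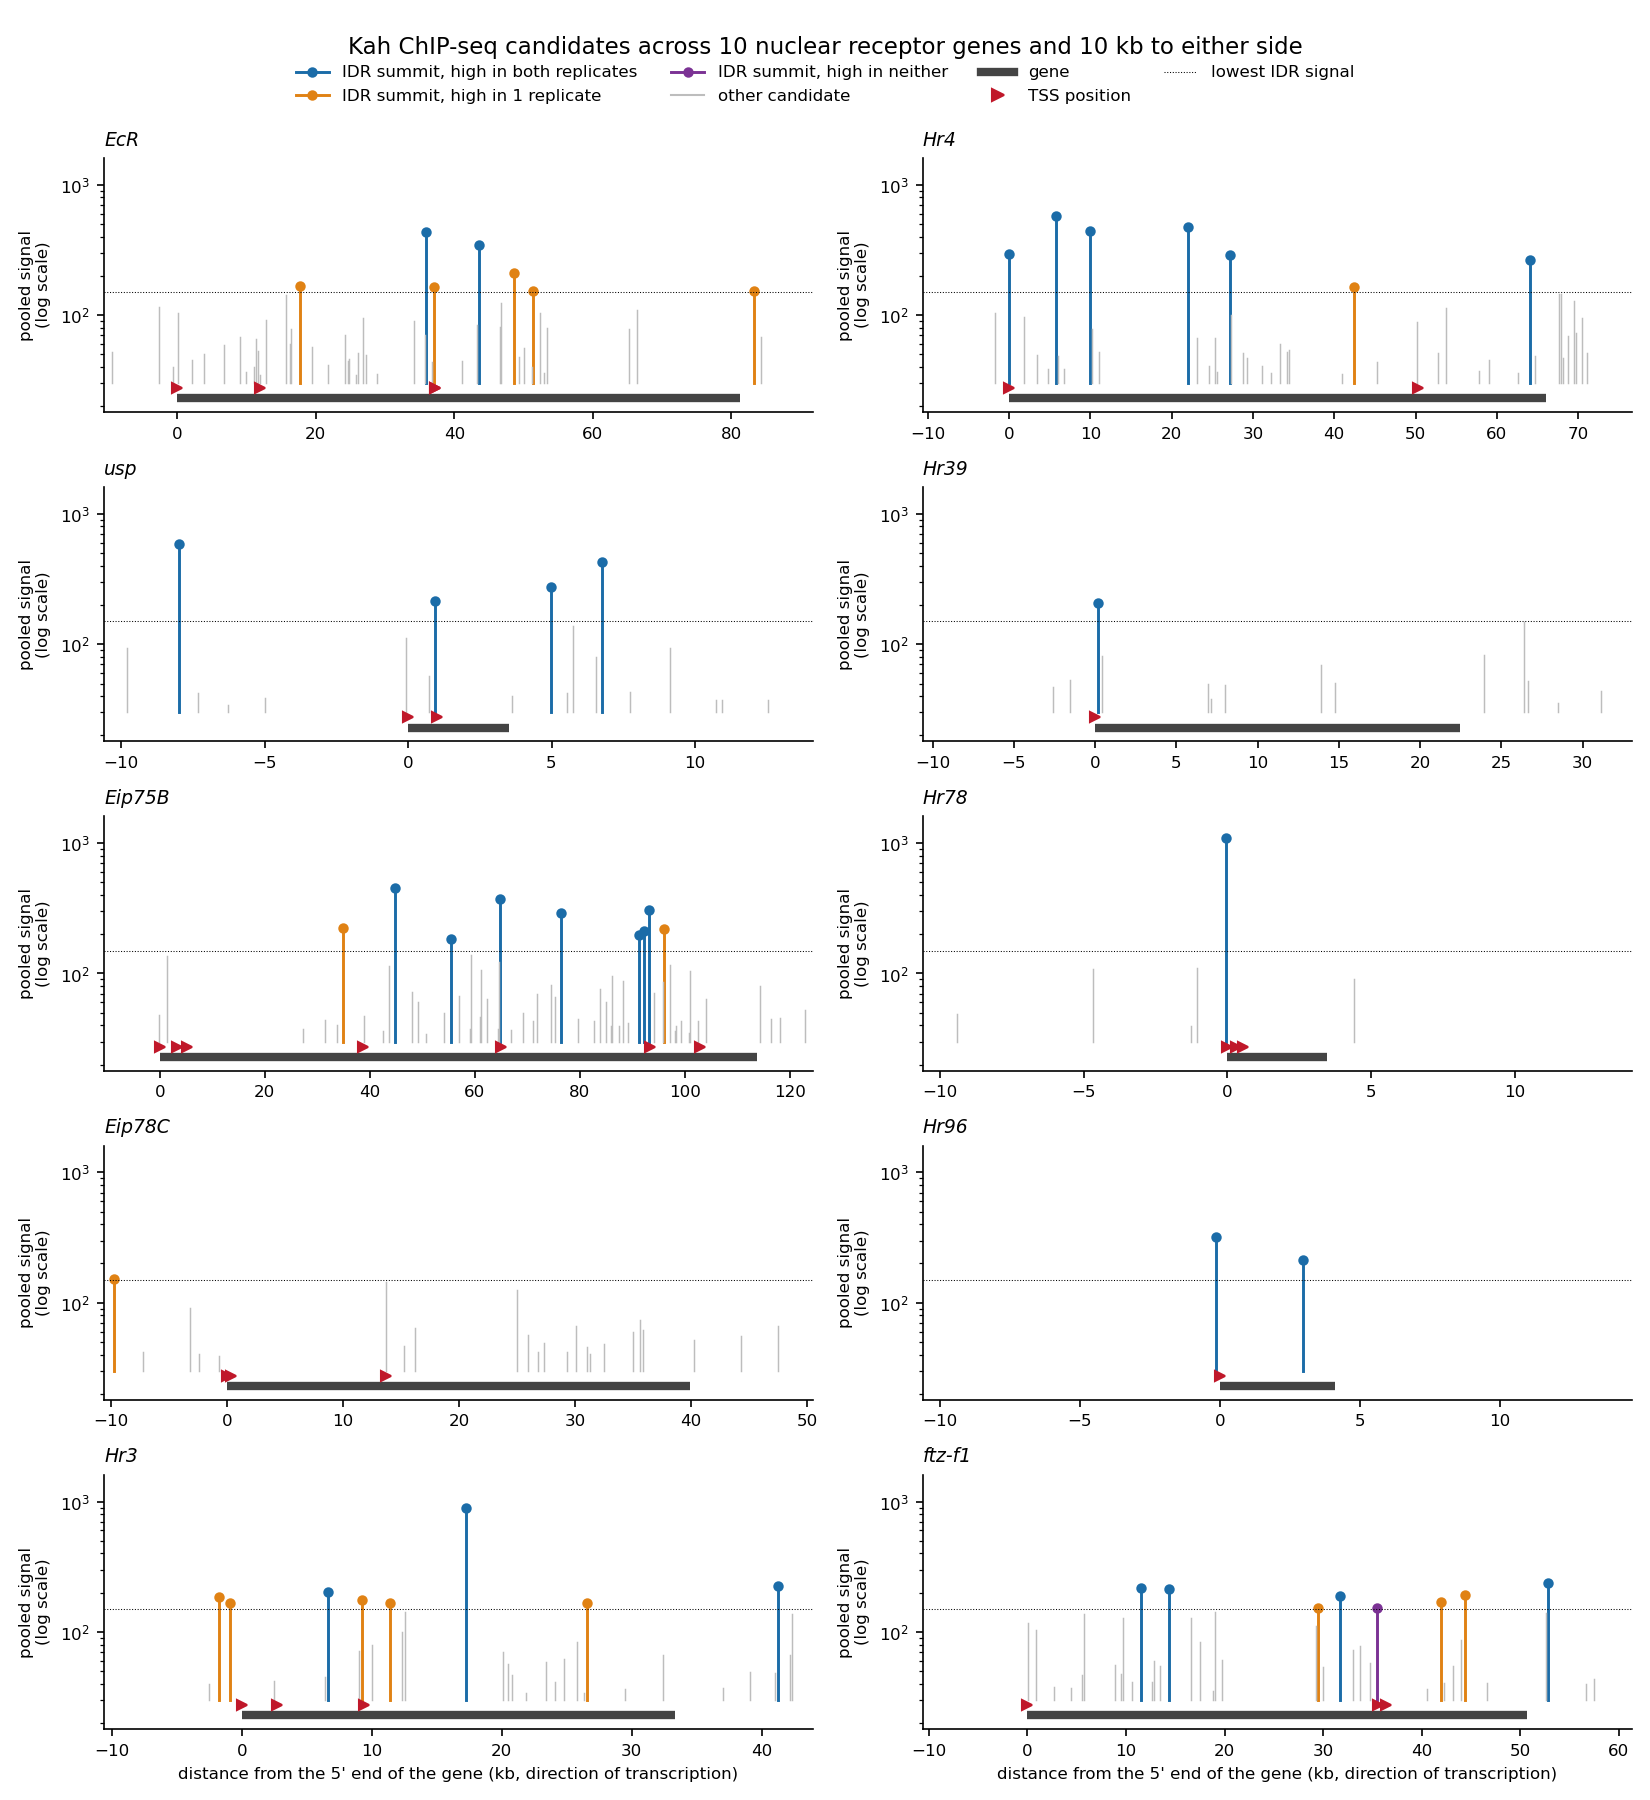
Each panel shows 1 gene with 10 kb to either side, with distance from its 5′ end in kb in the direction of transcription on the x axis and pooled signal on a log y axis. Coloured stems are the 48 IDR summits, blue where both replicates placed the summit among their 4105 strongest (30 summits), orange where 1 did (17) and purple where neither did (1), grey stems are other pooled candidates, red arrowheads are TSS positions, and the dotted line is the lowest IDR signal of 149.7. *Eip75B*, *Hr4*, *ftz-f1*, *EcR* and *Hr3* carry series of summits inside the gene, while *Hr39* and *Hr78* carry 1 at the start and *Eip78C* carries 1 only in its flank.

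The 49 protein-coding transcripts of the 10 genes start at 29 TSS positions. An IDR summit lay within 500 bp of 12 of them (41.4%), against 15.8% of the TSS positions of all protein-coding genes, and nothing is read from this since the genes were chosen on their promoter peaks. Another 10 positions had only a weaker pooled candidate and 7 had none. The TSS of the transcript that the annotation marks as canonical was among the 12 in 5 genes, *EcR*, *Hr4*, *Hr39*, *Hr78* and *Hr96*. In *usp*, *Eip75B*, *Hr3* and *ftz-f1* the IDR summit lay at another start site than the canonical one. The share of all protein-coding genes with an IDR summit at the canonical TSS is not given here. No preference for either kind of start is therefore read from these counts.

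**Figure D2:**
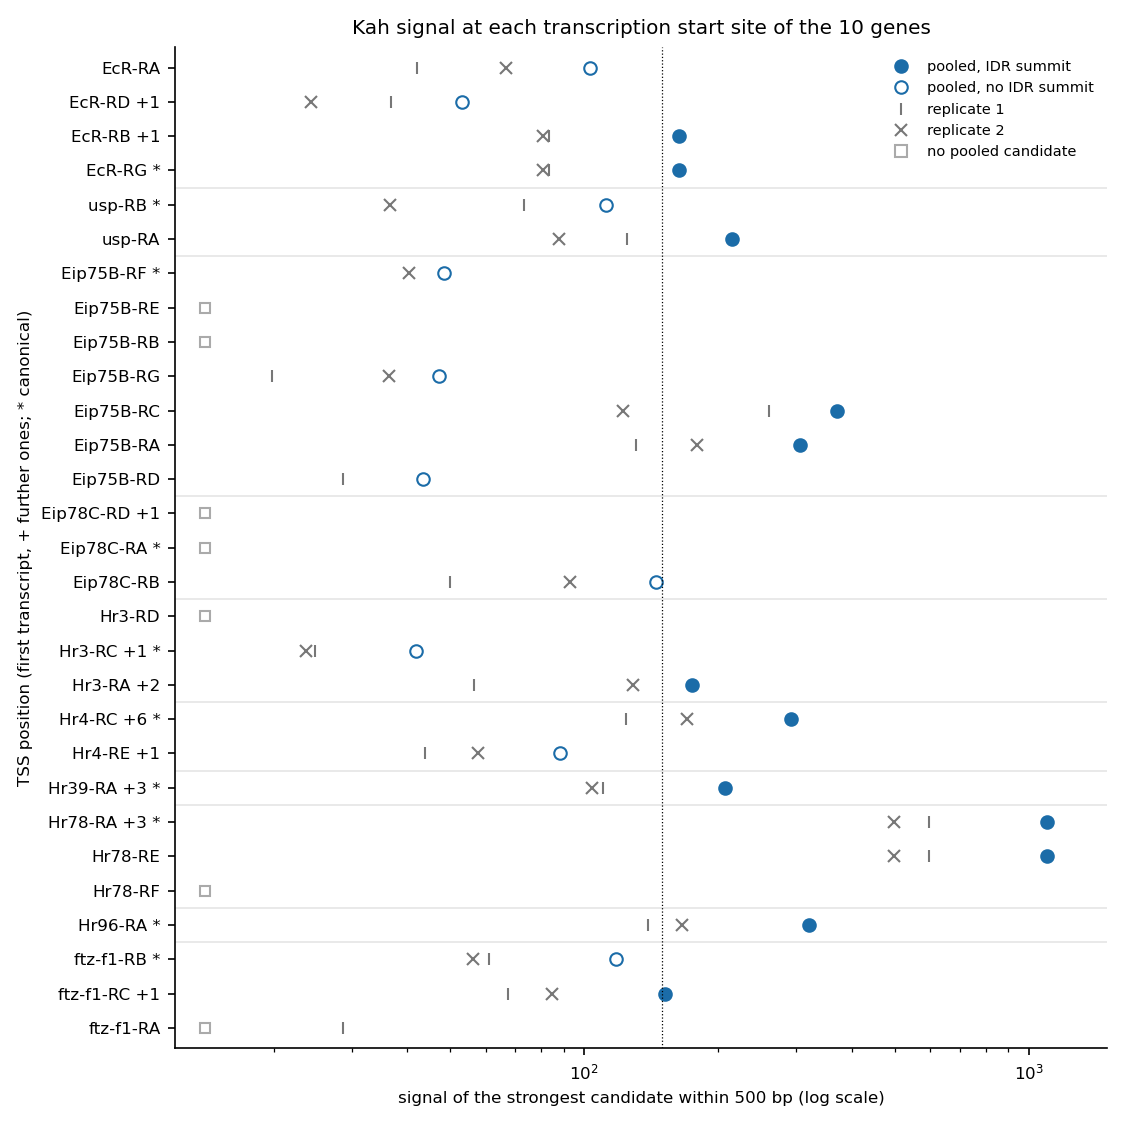
Signal of the strongest candidate within 500 bp is plotted on a log x axis for each of the 29 TSS positions, with filled circles for positions with an IDR summit, open circles for weaker pooled candidates, bars and crosses for the strongest candidate of replicate 1 and replicate 2, and open squares for positions without a pooled candidate. The dotted line is the lowest IDR signal of 149.7. Both *Hr78* positions drawn at 1099 share 1 summit, *Eip78C*-RB at 145 is the nearest below the line, and *ftz-f1*-RC at 152 the nearest above it.

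*EcR* (FBgn0000546) lies at 2R:6087873-6169087 on the minus strand, and its internal promoter region had an IDR summit while its most upstream start did not. The promoter summit at 2R:6132006 was 84 bp upstream of the shared TSS of *EcR*-RB and *EcR*-RC and 165 bp upstream of that of *EcR*-RG. Its pooled signal was 163, with 83.1 in replicate 1 and 80.8 in replicate 2. The replicates differed by less than their usual spread, but the summit ranked 3479 in replicate 1 and 4174 in replicate 2, just past the 4105th place, so by rank it rests on replicate 1. At the most upstream TSS, that of *EcR*-RA, the strongest candidate lay 25 bp inside the transcript with a pooled signal of 103, 39.4 in replicate 1 and 66.7 in replicate 2. At *EcR*-RD and *EcR*-RE it was weaker still, at 53.2.

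Stronger signal stood inside *EcR* than at its promoters. The summit at 2R:6133175, 1253 bp upstream of *EcR*-RB and *EcR*-RC and in intron 3 of *EcR*-RA, had a pooled signal of 430.1, with 216 in replicate 1 and 222 in replicate 2. The next, at 2R:6125550 in intron 1 of *EcR*-RG, had 345, with 144 and 201 in replicates 1 and 2. These were high in both replicates, and both replicates put them above the promoter summit. The remaining 3 internal summits were lower, and each was among the 4105 strongest of only 1 replicate. At 2R:6120513 the pooled signal was 211 (70.6 in replicate 1 and 140.4 in replicate 2), at 2R:6151437 it was 166 (68.7 and 107), and at 2R:6117660 it was 152 (75.5 and 74.2). A seventh summit in the region, at 2R:6085724 with 154, lay at the promoter of *Ars2*, 2149 bp beyond the 3′ end of *EcR*. It had 74.7 in replicate 1 (rank 4072) and 79.5 in replicate 2 (rank 4283). By rank it rests on replicate 1, although replicate 2 gave the higher value.

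*usp* (FBgn0003964), which encodes the partner of EcR, is a short gene at X:2038798-2042311 on the minus strand. Its IDR summit at X:2041378 lay 66 bp upstream of *usp*-RA, the more downstream start, within 5′ UTR exon 3 of *usp*-RB. The pooled signal was 215, with 125 in replicate 1 and 87.9 in replicate 2, among the strongest 4105 of both. The summit was also within 500 bp of a TSS of *CG4313*, so it cannot be given to *usp* alone. The canonical start, that of *usp*-RB, had a candidate of 112 at 76 bp upstream, with 73.2 in replicate 1 and 36.6 in replicate 2. The other 3 IDR summits of the region lay outside *usp* and were stronger. At the promoter of *moody*, X:2050283, the signal was 585 (257 and 337 in replicates 1 and 2), and inside *Actn*, the alpha-actinin gene, it was 428 at X:2035559 (199 and 226) and 276 at X:2037312 (108 and 171). With 4 summits in 23514 bp the *usp* region had the highest density of the 10, 17.0 per 100 kb, and all 4 were high in both replicates.

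**Figure D3:**
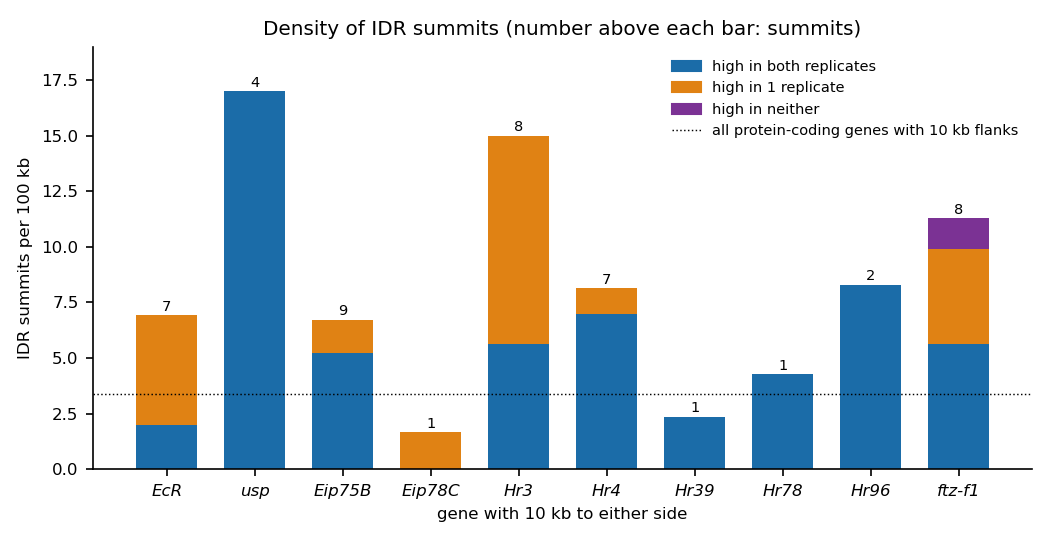
Bars give IDR summits per 100 kb of gene and flanks for each of the 10 genes, with the number of summits above each bar and colours for the number of replicates that placed the summit among their 4105 strongest. The dotted line is 3.39 per 100 kb, the value over all protein-coding genes with the same flanks. Densities run from 1.67 at *Eip78C* to 17.0 at *usp*, and the bars of short genes rest on 1 to 4 summits. The bars include the promoter summits on which the genes were chosen.

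*Eip75B* (FBgn0000568), a haem-binding receptor of the early ecdysone response, spans 3L:17950953-18064696 on the minus strand and has 7 TSS positions, each of 1 transcript. Of these, *Eip75B*-RC and *Eip75B*-RA had IDR summits. At *Eip75B*-RC the summit was 8 bp upstream of the TSS with a pooled signal of 371, 261 in replicate 1 and 122 in replicate 2. This log2 ratio lay 2.05 SD below the median ratio of all IDR summits, so the replicates disagreed here more than was usual, although both ranked the summit among their strongest. At *Eip75B*-RA the summit was 102 bp upstream with 306, 131 in replicate 1 and 179 in replicate 2. The canonical *Eip75B*-RF had a candidate of 48.4, *Eip75B*-RG 47.1 and *Eip75B*-RD 43.4, and *Eip75B*-RE and *Eip75B*-RB had none.

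The 7 internal summits of *Eip75B* were all intronic. The strongest, at 3L:18019833 in intron 3 of *Eip75B*-RF, had a pooled signal of 449, with 279.8 in replicate 1 and 169 in replicate 2. Next came 3L:17988362 in intron 4 of *Eip75B*-RF with 289 (153 and 131). A group of 4 summits surrounded *Eip75B*-RA, with the promoter summit itself and others at 3L:17968679 (219), 3L:17972534 (213) and 3L:17973477 (198). Gaps between neighbours in this group were 2862, 993 and 943 bp. The summit at 3L:17968679 had a signal of 111 in replicate 1, while replicate 2 had no summit within 100 bp, its nearest being 141 bp away with 113. The summit at 3L:18009165 had 183 (78.9 and 106) and was high in both replicates. The summit at 3L:18029802 had 223 (69.6 and 146) and was high only in replicate 2.

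*Eip78C* (FBgn0004865), a relative of *Eip75B* at 3L:21226609-21266503 on the plus strand, had no IDR summit in the gene. The strongest candidate stood 4 bp inside *Eip78C*-RB, an internal start, with a pooled signal of 145, 49.8 in replicate 1 and 92.8 in replicate 2. It ranked 4320 in the pooled list and 3340 in replicate 2, so it fell just outside the IDR list and would be inside a list of that size made from replicate 2. The canonical *Eip78C*-RA and the upstream start of *Eip78C*-RD and *Eip78C*-RE had no pooled candidate. The region's IDR summit, at 3L:21216874 with 152 (79.5 and 78.4), lay 9735 bp upstream at the shared promoter of *Ilk* and *Trmt112* and rests on replicate 1. It is also the summit just inside the 10000 bp flank. The nearest one left out stood 10607 bp beyond the other end of *Eip78C*, at 3L:21277110 with 151.

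*Hr3* (FBgn0000448), an orphan receptor of the early-late response related to the vertebrate ROR proteins, lies at 2R:10203995-10237348 on the minus strand. Its promoter summit at 2R:10228096 was 139 bp upstream of the downstream start shared by *Hr3*-RA, *Hr3*-RF and *Hr3*-RH and at the same distance from a TSS of *CG46321*. The pooled signal was 175, with 56.4 in replicate 1 (rank 6187) and 129 in replicate 2 (rank 1878), so the call rests on replicate 2. The start of the canonical transcript had a candidate of 41.9 and that of *Hr3*-RD had none.

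The strongest summit inside any of the 10 genes was in *Hr3*. At 2R:10220093, in intron 1 of *Hr3*-RI and 7864 bp downstream of the TSS of *Hr3*-RA, the pooled signal was 893, with 496 in replicate 1 and 399.7 in replicate 2. It ranked 175 of all pooled candidates, 136 in replicate 1 and 229 in replicate 2. The intronic summit at 2R:10230750 had 203 (80.8 and 121) and was high in both. The other intronic summits rest on replicate 1, with 168 at 2R:10210813 (122 and 50.2) and 167 at 2R:10225929 (106 and 71.1). The replicate ratio at 2R:10210813 was the most extreme of the 46 that could be computed, 2.36 SD below the median. *CG12912* and, in part, *CG46321* overlap this intron. Outside the gene, summits of 168 at 2R:10238247 and 185 at 2R:10239098 lay at the promoter and inside of *Hdc* and rest on replicate 2, and 1 of 224 at 2R:10196074 lay between genes and was high in both.

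*Hr4* (FBgn0264562), a receptor that represses parts of the early response, lies at X:1941940-2007956 on the plus strand and had 6 internal summits, 5 of which both replicates ranked high, as many as in *Eip75B*. Its promoter summit at X:1941886 was 54 bp upstream of the TSS shared by 7 of its 9 coding transcripts, with a pooled signal of 292 (124 and 170.1 in replicates 1 and 2). The downstream start of *Hr4*-RE and *Hr4*-RF had a candidate of 88.0. Inside the gene, signals were 576 at X:1947749 (315 and 268), 473 at X:1963925 (268 and 212), 443 at X:1951906 (185 and 259.7) and 287 at X:1969085 (165 and 126). Those of 576 and 443 lay in intron 2 of *Hr4*-RI, that of 473 in intron 3 and that of 287 in intron 4. In both replicates those of 576, 473 and 443 exceeded the promoter. A summit at X:2006022 with 263 (149 and 112) lay in the 3′ UTR in exon 12 of *Hr4*-RK, and 1 at X:1984399 with 164 (109 and 57.9) rests on replicate 1.

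*Hr39* (FBgn0261239), a close relative of *ftz-f1*, lies at 2L:21237250-21259675 on the plus strand with a single TSS position for its 4 coding transcripts. Its summit at 2L:21237440 was 190 bp downstream of that TSS, in intron 1 of *Hr39*-RB. The pooled signal was 207, with 110.4 in replicate 1 and 104 in replicate 2, so both replicates gave near-equal values. Its flank also held the highest candidate of all regions that missed the IDR list, 147.5 at 2L:21263651, which had 91.4 in replicate 2 and no summit within 100 bp in replicate 1. Replicate 1 had 56.1 at the neighbouring candidate, 2L:21263859. The lowest IDR signal in the regions was 151.7.

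*ftz-f1* (FBgn0001078), known as the embryonic partner of the segmentation protein Ftz and later as a competence factor for ecdysone, lies at 3L:18750607-18801309 on the minus strand. Its promoter summit at 3L:18765873 was 129 bp upstream of the start shared by *ftz-f1*-RC and *ftz-f1*-RD. The pooled signal was 152, with 50.5 in replicate 1 (rank 7272) and 69.5 in replicate 2 (rank 5253) at that position. It was the only one of the 48 summits that neither replicate ranked among its 4105 strongest. Within 500 bp of the same TSS, both replicates also had a stronger candidate. It was 67.4 in replicate 1 (rank 4747) and 84.8 in replicate 2 (rank 3881). The canonical *ftz-f1*-RB start had a candidate of 118 at 8 bp, with 60.9 and 56.2 in replicates 1 and 2. So the 2 promoters of *ftz-f1* with a candidate had pooled signals of 152 and 118, and only 1 passed. The error of a difference between 2 sites is not known here, so nothing is read from it.

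The 6 internal summits of *ftz-f1* had pooled signals of 153 to 218. Both replicates ranked 3 of them high, at 3L:18789842 (218, with 90.7 and 129.8), 3L:18786946 (212, with 137 and 82.8) and 3L:18769614 (188, with 97.6 and 82.5). Replicate 2 alone ranked the others high, at 3L:18756978 (192, with 68.7 and 107), 3L:18759392 (169, with 62.8 and 95.5) and 3L:18771877 (153). At the last of these replicate 2 had 107, and the nearest summit of replicate 1 was 188 bp away with 64.7. A further summit of 236 at 3L:18748480 (109 and 126), 2127 bp beyond the 3′ end, lay at the shared promoter of *Atg3* and *Nufip*.

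*Hr78* (FBgn0015239), a receptor reported on many ecdysone-responsive sites of polytene chromosomes, lies at 3L:21494019-21497494 on the minus strand and had the strongest summit of all. At 3L:21497535, 41 bp upstream of the start shared by *Hr78*-RA, *Hr78*-RB, *Hr78*-RC and *Hr78*-RD and 352 bp upstream of *Hr78*-RE, the pooled signal was 1099, with 596 in replicate 1 and 498 in replicate 2. It ranked 112 in the pooled list, 86 in replicate 1 and 146 in replicate 2. Both values exceeded those of every other promoter summit of the 10 genes, of which the highest was 261 at *Eip75B*-RC in replicate 1. No other IDR summit lay within the gene or its flanks, where the next candidate had 110.1. The CAGGTG printed above lay on the upstream side of this summit.

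*Hr96* (FBgn0015240), a receptor known for responses to xenobiotics and for lipid and cholesterol balance rather than for ecdysone, lies at 3R:25025235-25029351 on the plus strand. Its promoter summit at 3R:25025106 was 129 bp upstream of the TSS, with a pooled signal of 320.4, 139 in replicate 1 and 166 in replicate 2. It lay 89 bp from a TSS of *EMC6*, and so is shared. A second summit at 3R:25028224, in intron 3 and 2989 bp downstream of the TSS, had 211 (87.5 and 137). Both were high in both replicates and were the only pooled candidates in the gene and its flanks.

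Read by replicate, 30 of the 48 summits (62.5%) lay within 100 bp of a summit among the 4105 strongest of both replicates, against 70.2% of all IDR summits. Another 17 (35.4%, against 27.8%) were among the strongest of only 1 replicate, 8 of replicate 1 and 9 of replicate 2. Uncut, both lists held a summit within 100 bp of 46 (95.8%, against 95.1%), and the exceptions were the *Eip75B* summit at 3L:17968679 and the *ftz-f1* summit at 3L:18771877. The 17 had pooled signals of 152 to 223 with a median of 168, and the 30 had a lowest signal of 183 and a median of 288. In the replicate that missed the cut, ranks ran from 4174 to 8600 where the summit was listed, and 6 were within 500 places of it. The signals at the 4105th rank were 74.4 in replicate 1 and 81.7 in replicate 2. Calls on 1 replicate were 5 of 7 in *EcR*, 5 of 8 in *Hr3*, 3 of 8 in *ftz-f1*, 2 of 9 in *Eip75B*, 1 of 7 in *Hr4* and 1 of 1 in *Eip78C*. None of the 8 summits of *usp*, *Hr39*, *Hr78* and *Hr96* did. Of the 10 own promoter summits, 7 were high in both replicates, 2 in 1 (*EcR* and *Hr3*) and 1 in neither (*ftz-f1*). At the *ftz-f1* promoter, replicate 2 did have a summit among its 4105 strongest, but over 100 bp from the pooled summit. This leaves 6 genes with a promoter summit high in both. The share of all protein-coding genes with such a summit is not given here, so nothing is read from that count.

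**Figure D4:**
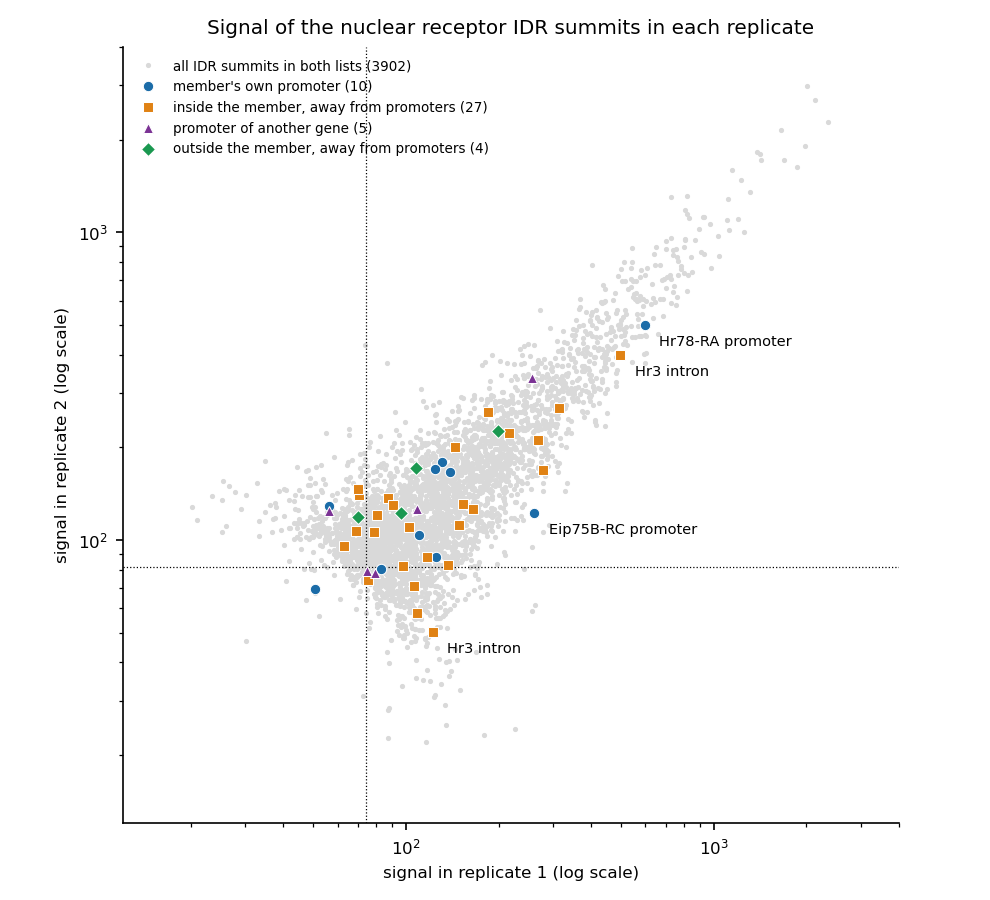
Signal in replicate 1 (x axis) and replicate 2 (y axis), both on log scales, of the 46 summits in the 10 genes and flanks that both lists held, coloured by position, over the 3902 such summits of all IDR peaks in grey (the few above 4000 are outside the frame). Dotted lines mark the signal at rank 4105, 74.4 in replicate 1 and 81.7 in replicate 2, and the *Hr78* promoter and the *Hr3* intron stand apart at the upper right. Departures from the median replicate ratio ran from -2.36 to 1.97 SD.

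Below the IDR threshold, 238 pooled candidates lay in the same regions. Of all 286 pooled candidates, 137 (47.9%) had a summit within 100 bp in both replicate lists, against 45.5% of all pooled candidates, 59 only in replicate 1, 65 only in replicate 2 and 25 in neither. Of the 238, 91 had signal in both lists. For the counts of 59, 65, 25 and 91 no share over all candidates is given here, so nothing is read from them. The numbers of pooled candidates ran from 58 at *Eip75B*, 50 at *EcR* and 44 at *Hr4* to 6 at *Hr78* and 2 at *Hr96*. The strongest that missed the list was 142 in the *EcR* region (37.0 and 103 in replicates 1 and 2), 143 in that of *Hr3* (43.2 and 94.3) and 143 in that of *ftz-f1* (112 and 41.1). It was 138 in the *usp* region (130.5 in replicate 2), 138 in that of *Eip75B* (23.4 in replicate 1) and 146 in that of *Hr4* (98.5 in replicate 1). So of these 6 the first 3 had a match within 100 bp in both lists and the last 3 in 1. At neighbouring candidates the other replicate did have signal. This was 29.7 in replicate 1 at X:2036776 for *usp*. In replicate 2 it was 77.3 at 3L:18005646 for *Eip75B* and 97.4 at X:2009820 for *Hr4*.

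CAGGTG was present at 6 of the 48 IDR summits (12.5%), against 9.87% of all IDR summits and 5.36% of pooled candidates more than 500 bp from one. It was at 1 of the 10 own promoters, that of *Hr78*, and at 5 of the other 38 summits. The overlapping form ACAGGT was present at 7 (14.6%, against 9.48% and 4.32%), 4 of them copies that share bases with a CAGGTG, and ACAAGT at 5 (10.4%, against 10.8% and 6.28%), none of them an own promoter. GAGAGA, the word of GAGA factor, was present at 7 (14.6%, against 7.87% and 5.45%), of which 3 were own promoters. AGGTCA, the half-site of many nuclear receptors, was present at 1 (2.08%, against 1.80% and 1.99%), in *ftz-f1*, and CAAGGTC, an extended half-site of the Ftz-F1 type, at none. The shuffled word GTGGAC was present at 2 (4.17%, against 1.88% and 2.65%) and GACGTA at 1 (2.08%, against 1.34% and 1.26%). So a shuffled word also stood at over 2 times its share of all IDR summits, and nothing is read from differences of this size. Words were sought on both strands within 50 bp of the summit, a match does not show a bound site, and with 48 summits a difference of 1 or 2 matches moves a share by several percentage points.

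Other genes of the pathway were taken as 4 lists of 46 genes in all. Of these 46, 30 had a pooled candidate at an own promoter, against 53.4% of all protein-coding genes. An IDR summit lay there in 10 of the 46, against 17.0% of all protein-coding genes. In 5 of the 10 it was high in both replicates, for which no share over all genes is given here. Nothing is read from these counts, and the 10 are named below. Among 11 other nuclear receptors there were 3, *Hnf4* with a signal of 417 (222 and 186 in replicates 1 and 2), *eg* with 163 (65.0 and 87.3) and *ERR* with 153 (98.1 and 48.1). Among 13 other ecdysone-induced genes there was 1, *Eip63F-1*, a calcium-binding protein gene, with 245 (139.6 and 106). The early genes *br* and *Eip93F* had no pooled candidate at a promoter, and *Eip74EF* had 87.4. Among 11 genes of ecdysteroid synthesis and breakdown there were 2, *shd*, whose enzyme makes the active hormone, with 316 (115 and 207), and the sterol transport gene *Npc1a* with 151 (85.0 and 65.2). The last list, 11 genes grouped under hormone entry, coregulators and other hormone receptors, is mixed, and not all of its genes have these roles. In it there were 4. These were *gce*, a juvenile hormone receptor gene, with 986 (492 and 485), *tai*, a coactivator of EcR, with 359 (185 and 184), *mld* with 169 (55.1 and 104) and *DopEcR*, a receptor for dopamine and ecdysteroids, with 168 (67.7 and 89.8). The summits of *ERR*, *Npc1a* and *mld* also lay at promoters of *Atg18a*, *Prosalpha6* and *CG13625*, respectively, and so cannot be given to them alone. None of these 10 promoter summits had CAGGTG within 50 bp.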

How the data were processed

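ChIP-seq of Kah-GFP was analysed from 4 deposited peak lists in dm6 coordinates. Per the deposited file listing, each replicate's candidates came from its own alignment and 1 control alignment shared by both, and all 3 candidate lists entered the IDR list. Peak signal is as the authors' caller gave it. The −log10 q value in the deposited lists was the same for all IDR peaks and was not used. The sources used here name no aligner, caller or filter, read depth is unknown, and replicate signals are not scaled to a common depth. The authors chose IDR peaks from both replicates, so recurrence in a replicate is not an independent test of a peak.

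Genes came from Ensembl release 115 and sequence from the Release 6 assembly, in which 0 peaks exceeded a chromosome's length. A promoter was 500 bp to either side of a TSS of a protein-coding transcript, and summits within 100 bp matched. A call rests on 1 replicate where only 1 replicate list, cut at its 4105 strongest summits, held a match. The genes, pathway lists and words were chosen with earlier results of these data known, and no test was made. All 10 genes and every IDR summit within 10000 bp of them are named, with the strongest other candidate of a region and up to 4 genes of each pathway list. In those lists 5 older symbols were replaced and 2 merged. Counting used Python 3.11.15 and numpy 2.4.6, with plots in matplotlib 3.10.9. Matching and word search were tested on simulated data and recovered what was planted. Alternatives changed the promoter reach, TSS set, flank, match distance, window, threshold and replicate. Sequences of *EcR* and *Hr3* are not shown.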

Additional observations from a re-analysis of the deposited data

How the results depend on the processing

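Of 46 alternatives tried over 8 counts, 38 stayed within 1.5 times the reported value. With only the 2052 IDR summits of highest signal, genes with an own promoter summit fell from 9 to 4 (*Eip75B*, *Hr4*, *Hr78* and *Hr96*), IDR summits in the regions from 48 to 19, those resting on 1 replicate from 17 to 0, TSS positions from 12 to 6, summits away from promoters from 33 to 12 and pathway genes from 10 to 5. With canonical TSS only, the genes were 5 and the TSS positions 5. By construction both settings hold fewer summits or TSS. Leaving out a replicate gave 7 to 9 genes. Without replicate 1, *EcR* was lost and *Eip78C* gained, and without replicate 2, *Hr3* and *ftz-f1* were lost. Own promoter calls were of the same 9 genes with a reach of 250 or 1000 bp. No paired analysis was possible because there was 1 group and no comparison between groups. Signals have no stated unit and depth is unknown, so differences near the threshold, such as *Eip78C*-RB at 145 and *ftz-f1* at 152, are not read as differences between sites.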

Other observations

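The sequences around the summits held a longer shared word that no list had named. AGATGGCGC lay within 50 bp of 3 of the 48 IDR summits (6.25%), against 0.438% of all IDR summits and 0.266% of pooled candidates more than 500 bp from one, and AGGTGGCGC at 1 (2.08%, against 0.268% and 0.214%). Either word was present at 4 of 48 (8.33%), against 26 of 4105 (0.633%) and 0.468%. The 4 summits were inside genes and away from promoters, 2 in *Eip75B* and 1 each in *EcR* and *Hr4*. Both words resemble the core recognised by the insulator protein CTCF. They were chosen after these sequences had been seen, so the counts carry no test. The AGGTGGCGC of *Hr4* overlaps the CAGGTG counted there.

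The sites are printed in dm6 with the word in capitals, since they allow the flanks to be compared.
*Eip75B* intron 4, chr3L:17988335-17988363, plus strand: acctaacactAGATGGCGCcagtatgtta
*Eip75B* intron 3, chr3L:18019837-18019865, plus strand: aaccaccgtcAGATGGCGCcacacgctaa
*Hr4* 3′ end, chrX:2006000-2006028, minus strand: ctctaaatacAGGTGGCGCcactgaggaa
The pooled signals at these 3 summits were 289, 449 and 263, all high in both replicates, and the word's first base on the plus strand lay 17, 14 and 12 bp from the summit. The fourth, in *EcR* and not printed, had a pooled signal of 166 and was high only in replicate 2 (68.7 in replicate 1 and 107 in replicate 2), and its word began at -34 bp from the summit.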
